A study of Homo sapiens with 5 samples.

Results

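The mitochondrial ribosomal protein genes were taken as every symbol of the expression tables that reads MRPL or MRPS followed by a number, with A, B or C allowed after an MRPS number. The rule used symbols only and gave 77 genes of 26364, of which 48 were MRPL (large subunit series) and 29 were MRPS (small subunit series). They were measured in 5 libraries of SH-SY5Y, a line grown from a human neuroblastoma that takes on neuron-like features under suitable treatment, with 1 library in each group. Cells labelled siSTAU1 received an siRNA against STAU1, which recognises double-stranded RNA, and cells labelled siUPF1 one against UPF1, the helicase of nonsense-mediated decay, while cells labelled siControl were the control for both. All 3 grew in medium with 10% serum and 1% antibiotics. Cells labelled Differentiation and Nondifferentiation had the same medium with 50 uM retinoic acid listed for both, so the media labels do not separate them, and the group names come from the sample titles. The design text is concerned with transcripts that STAU1 and UPF1 bring to decay and that would be higher both after their depletion and in differentiation.

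Mitochondria carry their own ribosome, which makes the few membrane proteins of the respiratory chain that mitochondrial DNA encodes. Its RNAs come from mitochondrial DNA, but all of its proteins are encoded in the nucleus, made on cytosolic ribosomes and imported. Many have counterparts in bacterial ribosomes, and others are specific to mitochondria. Retinoic acid is a standard agent for turning neuroblastoma cells into slower-dividing cells with neurites.

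The libraries were made by sequencing from the 3' ends of polyadenylated transcripts, a method meant to keep a value independent of transcript length, which was not tested here. Values are the deposited log2 values, and a log2 fold is the difference between 2 of them. The upper part of their distribution is shared by the 5 libraries. The low end is not, since only Differentiation has values below 0 (478 symbols), and 9583 to 9932 symbols a library are listed at 0. With 1 library a group there is no spread between cultures and no test, and a member is counted as higher or lower when it differed by at least 2-fold, or by 1.5-fold where that is said. An SE given beside a fold is an estimate of counting error alone, from estimated totals of 15400000 to 32300000 reads a library. Estimated reads per member ran from 56 for MRPS30 in Differentiation to 6580 for MRPS21 in Differentiation. A gene is called measured in a comparison when the larger of its 2 values reached the median of all nonzero values of the 2 libraries, a log2 value between 7.76 and 7.84. In these bulk samples, fewer cells of a type and less RNA per cell cannot be told apart.

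Of the targeted mRNAs, STAU1 stood at 11.34 in siSTAU1 against 12.87 in siControl, a log2 fold of -1.52. UPF1 stood at 9.20 in siUPF1 against 10.74 in siControl, a log2 fold of -1.53. Both knockdown labels therefore matched their target mRNAs. Of 10 noradrenergic neuroblastoma markers, 8 or 9 were at or above a log2 value of 7.81 in every library. Epithelial markers summed to 616 in linear units in siSTAU1 and 153 in siUPF1, against 65.6 in siControl, and to 148 in Differentiation against 61 in Nondifferentiation. Of these 10 markers 0 reached 7.81 in any library. Hepatocyte markers summed to 134.6 in siSTAU1 and 522 in siUPF1, against 85 in siControl, with 6 of 8 listed at 0 in each, and 1 marker, ALB, reached 7.81, at 9.02 in siUPF1. Blood markers summed to 311.6 in siSTAU1 and 125.8 in siUPF1, against 144.6 in siControl, with 0 of 7 at 7.81. Of these 7, 4 were higher and 1 lower in siSTAU1 than in siControl, and 2 higher and 3 lower in siUPF1. PTPRC was listed at 0 in siSTAU1, siUPF1 and siControl. Of the 10 epithelial markers 9 were higher and 1 lower in siSTAU1 than in siControl, and 6 higher and 2 lower in siUPF1. In Differentiation 9 of them were higher than in Nondifferentiation and 0 lower. CDH1 was among those listed at 0 in siUPF1 (3 of 10), siControl (5 of 10) and Nondifferentiation (5 of 10). The part of all these markers in the results was not tested.

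All 77 members had a value above 0 in every library, and their levels covered a wide range. Among MRPL genes the highest means over the 5 libraries were those of MRPL33 (11.84), MRPL55 (11.71), MRPL42 (11.55), MRPL11 (11.26) and MRPL52 (11.23). The lowest were those of MRPL2 (6.97), MRPL36 (7.05), MRPL50 (7.15), MRPL39 (7.27) and MRPL46 (7.43). MRPL11 builds the base of the flexible stalk that recruits translation factors, and MRPL2 lies at the core of the peptidyl transferase region. Among MRPS genes the highest means were those of MRPS21 (12.10), MRPS27 (11.87), MRPS2 (11.39), MRPS33 (11.01) and MRPS26 (10.98). The lowest were those of MRPS28 (6.19), MRPS30 (6.88), MRPS22 (7.30), MRPS15 (7.38) and MRPS31 (7.72). Neighbours in these orders mostly lay closer together than the range of either gene over the libraries. The values of MRPL33, for example, had a range of 0.31 over the 5 libraries and those of MRPL55 one of 0.47, more than the distance between their means. Because a 3' end count depends on the use of each gene's last polyadenylation sites, these are levels of 3' end reads and not amounts of protein.

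Across the 5 libraries both series lay close together in 4 and stood low in 1. The summed MRPL level was 48337 linear units in siSTAU1, 45497 in siUPF1 and 46684 in siControl. It was 30226 in Differentiation and 46352 in Nondifferentiation. As a share of each library's linear total, MRPL genes held 0.155% in Differentiation and 0.238% in Nondifferentiation, and between 0.233% and 0.248% in the knockdown libraries and siControl. The MRPS sum was 35335 in siSTAU1, 35128 in siUPF1 and 35055 in siControl. It was 22086 in Differentiation and 32066 in Nondifferentiation. The Differentiation library thus held 0.652 times the MRPL signal and 0.689 times the MRPS signal of the Nondifferentiation library, and the other 4 lay near each other.

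**Figure D1:**
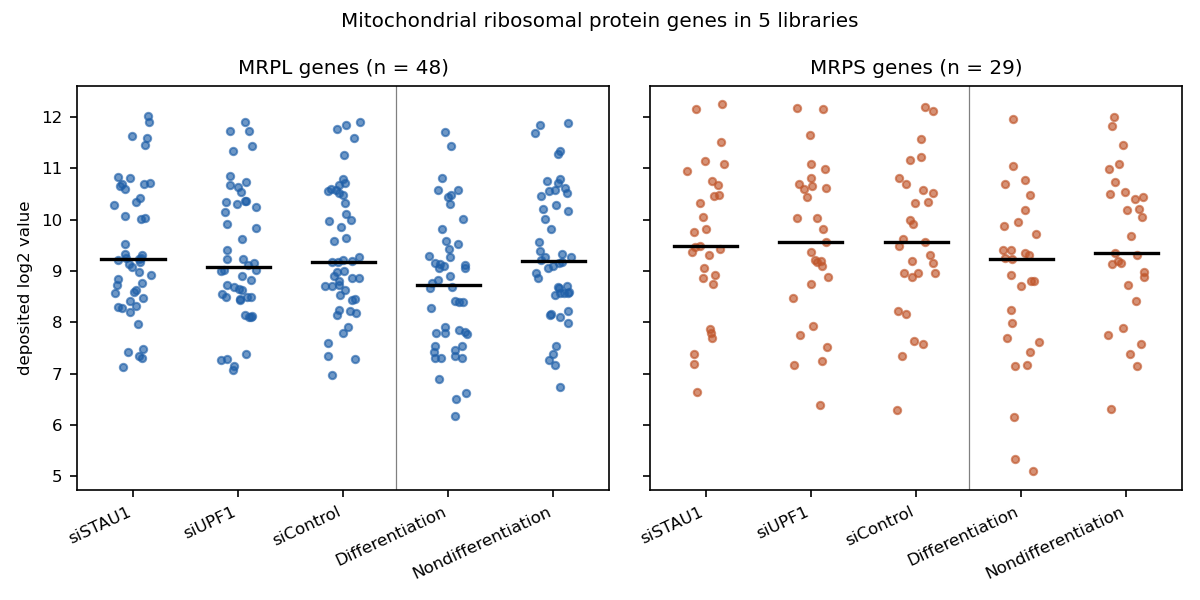
Deposited log2 value (y axis) of each MRPL gene (left, n = 48) and each MRPS gene (right, n = 29) in the 5 libraries (x axis); points are genes and the black bar is their median. The vertical line parts the knockdown libraries from the differentiation pair, and the MRPL median lay at 8.72 in Differentiation against 9.19 in Nondifferentiation.

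The comparison of Differentiation with Nondifferentiation gave a displacement shared by nearly all members. Of the 48 MRPL genes 46 were lower in Differentiation, with a median log2 fold of -0.70, and 13 were at least 2-fold lower while 0 were at least 2-fold higher. Of the 29 MRPS genes 28 were lower, with a median of -0.63, and 6 were at least 2-fold lower while 0 were higher. Over all 9064 measured genes 10.9% were at least 2-fold lower and 10.4% at least 2-fold higher, 49.1% lay below 0, 50.8% lay above 0 and the median was 0.02. Counted under the same floor, 42 of 43 measured MRPL genes lay below 0 and 12 (27.9%) were at least 2-fold lower, with a median of -0.72. For the 24 measured MRPS genes the counts were 23 below 0 and 4 (16.7%) at least 2-fold lower, with a median of -0.62. The MRPL share of 2-fold calls was thus above the background and the MRPS share closer to it, whereas both series lay almost wholly on 1 side of 0. At 1.5-fold, 25 of 43 measured MRPL and 13 of 24 measured MRPS genes were lower and 0 of either were higher, against 21.7% lower and 21.8% higher over all measured genes. The MRPL and MRPS medians correspond to values 1.65 and 1.54 times lower, so the typical member shifted less than 2-fold.

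The lowest MRPL folds belonged to proteins with bacterial counterparts. MRPL15, a core protein of the large subunit, stood at 7.34 in Differentiation and 8.96 in Nondifferentiation, and at 9.12 in siSTAU1 and 8.91 in siUPF1, against 9.17 in siControl. Its log2 fold in Differentiation was -1.62 (SE 0.11), 3.07 times lower. MRPL12, the stalk protein that also binds the mitochondrial RNA polymerase, stood at 9.11 in Differentiation and 10.72 in Nondifferentiation, and at 10.65 in siSTAU1 and 10.67 in siUPF1, against 10.52 in siControl. In both genes the 4 libraries other than Differentiation lay close together and Differentiation stood far below them. The log2 fold of MRPL12 was -1.61 (SE 0.06). MRPL3, a protein near the peptidyl transferase centre in which mutations cause a mitochondrial heart disease, stood at 9.16 in Differentiation and 10.57 in Nondifferentiation, a log2 fold of -1.42 (SE 0.06). It stood at 10.69 in siSTAU1 and 10.29 in siUPF1, against 10.48 in siControl. MRPL14, which lies at the interface with the small subunit, stood at 7.90 in Differentiation and 9.10 in Nondifferentiation, a log2 fold of -1.20 (SE 0.10). In the knockdowns it stood at 9.22 in siSTAU1 and 8.69 in siUPF1, so Differentiation was again the lowest library. MRPL13 stood at 7.41 in Differentiation and 8.57 in Nondifferentiation, a log2 fold of -1.16 (SE 0.11).

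The other measured MRPL genes at least 2-fold lower were spread over the particle. MRPL51 and MRPL42, both specific to mitochondria, had log2 folds of -1.15 and -1.11. MRPL4 and MRPL23, which line the exit tunnel of the growing chain and its mouth, had -1.15 and -1.06. MRPL18 of the central protuberance had -1.13, MRPL27 near the catalytic centre -1.12, and MRPL11 of the stalk base -1.05. Just short of 2-fold lay MRPL24, another protein of the tunnel mouth, and MRPL9, both at -0.99. MRPL36, which was under the measured floor in both libraries, stood at 6.17 in Differentiation and 7.26 in Nondifferentiation, a log2 fold of -1.08 with an SE of 0.18. With a pseudocount of 32 MRPL23 had -0.96 and MRPL36 -0.83, and against siControl MRPL4 had -0.83, each short of 2-fold. The other MRPL genes under that floor were MRPL39 at -0.88, MRPL50 at -0.55 and MRPL46 at -0.24, beside MRPL2.

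A few MRPL genes lay near 0 or above it. MRPL49, a mitochondria-specific protein, stood at 10.48 in Differentiation and 10.21 in Nondifferentiation, and at 10.03 in siSTAU1 and 10.36 in siUPF1, against 9.99 in siControl. It was the only measured MRPL gene above 0 in this comparison, at 0.28 (SE 0.05), and Differentiation was its highest library. MRPL28 stood at 9.27 in both Differentiation and Nondifferentiation, a log2 fold of -0.01 (SE 0.07). MRPL41, a mitochondria-specific protein, had -0.09, MRPL16 had -0.13 and MRPL38 of the central protuberance had -0.15. The low-level MRPL2 stood at 6.89 in Differentiation and 6.74 in Nondifferentiation, a log2 fold of 0.14 with an SE of 0.18. The stalk protein MRPL10, the partner of MRPL12, stood at 10.57 in Differentiation and 10.75 in Nondifferentiation. Its log2 fold of -0.18 (SE 0.05) lies far from the -1.61 of MRPL12, so the genes of these 2 stalk proteins differed by unequal amounts.

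Among MRPS genes the lowest fold was that of MRPS30, at 5.10 in Differentiation and 7.14 in Nondifferentiation. It stood at 7.38 in siSTAU1 and 7.16 in siUPF1, against 7.63 in siControl. Despite its S symbol, MRPS30 sits in the large subunit in structures of the human particle. All its values lay below the measured floor, and its log2 fold of -2.05 (SE 0.23), 4.13 times lower, rests on an estimated 56 reads in Differentiation. With a pseudocount of 32 its log2 fold was -1.39. MRPS23, a mitochondria-specific protein, stood at 7.68 in Differentiation and 9.13 in Nondifferentiation, a log2 fold of -1.44 (SE 0.10). Its values were 9.38 in siSTAU1, 8.87 in siUPF1 and 9.16 in siControl, which leaves Differentiation more than 1 log2 unit below every other library. MRPS24, a protein of the mRNA entry side, stood at 9.40 in Differentiation and 10.73 in Nondifferentiation, a log2 fold of -1.33 (SE 0.06). MRPS17, a protein that binds the small subunit RNA, stood at 7.42 in Differentiation and 8.72 in Nondifferentiation, a log2 fold of -1.30 (SE 0.11). MRPS34, whose loss destabilises the small subunit and causes Leigh syndrome in humans, stood at 9.26 in Differentiation and 10.43 in Nondifferentiation, a log2 fold of -1.17 (SE 0.06). In each of these 3 genes Differentiation was the lowest of the 5 libraries. MRPS9 and MRPS28 were just short of 2-fold, both at -0.98.

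MRPS15 was the least steady member. It stood at 6.15 in Differentiation and 7.38 in Nondifferentiation, a log2 fold of -1.23 (SE 0.18), which was -0.95 with a pseudocount of 32 and -2.01 against siControl. It stood at 7.70 in siSTAU1 and 7.52 in siUPF1, against 8.16 in siControl. Its range of 0.78 over the 4 libraries other than Differentiation was the widest of any member, and siControl itself was 0.78 above Nondifferentiation. At the other end, MRPS6 stood at 8.81 in Differentiation and 8.42 in Nondifferentiation, and at 8.85 in siSTAU1 and 9.09 in siUPF1, against 8.96 in siControl. Its log2 fold of 0.39 (SE 0.10) was the only one above 0 among MRPS genes. Here Nondifferentiation was the library that stood apart, 0.54 below siControl, and Differentiation lay near siSTAU1, siUPF1 and siControl. MRPS21, the member with the highest level, stood at 11.96 in Differentiation and 11.99 in Nondifferentiation. MRPS16, whose mutation causes a fatal mitochondrial disorder, had -0.11, MRPS25 had -0.21 and MRPS14 had -0.26. MRPS22, whose mutation also causes mitochondrial disease, had -0.42, and MRPS31 had -0.13, both under the floor, as were MRPS15, MRPS28 and MRPS30.

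**Figure D2:**
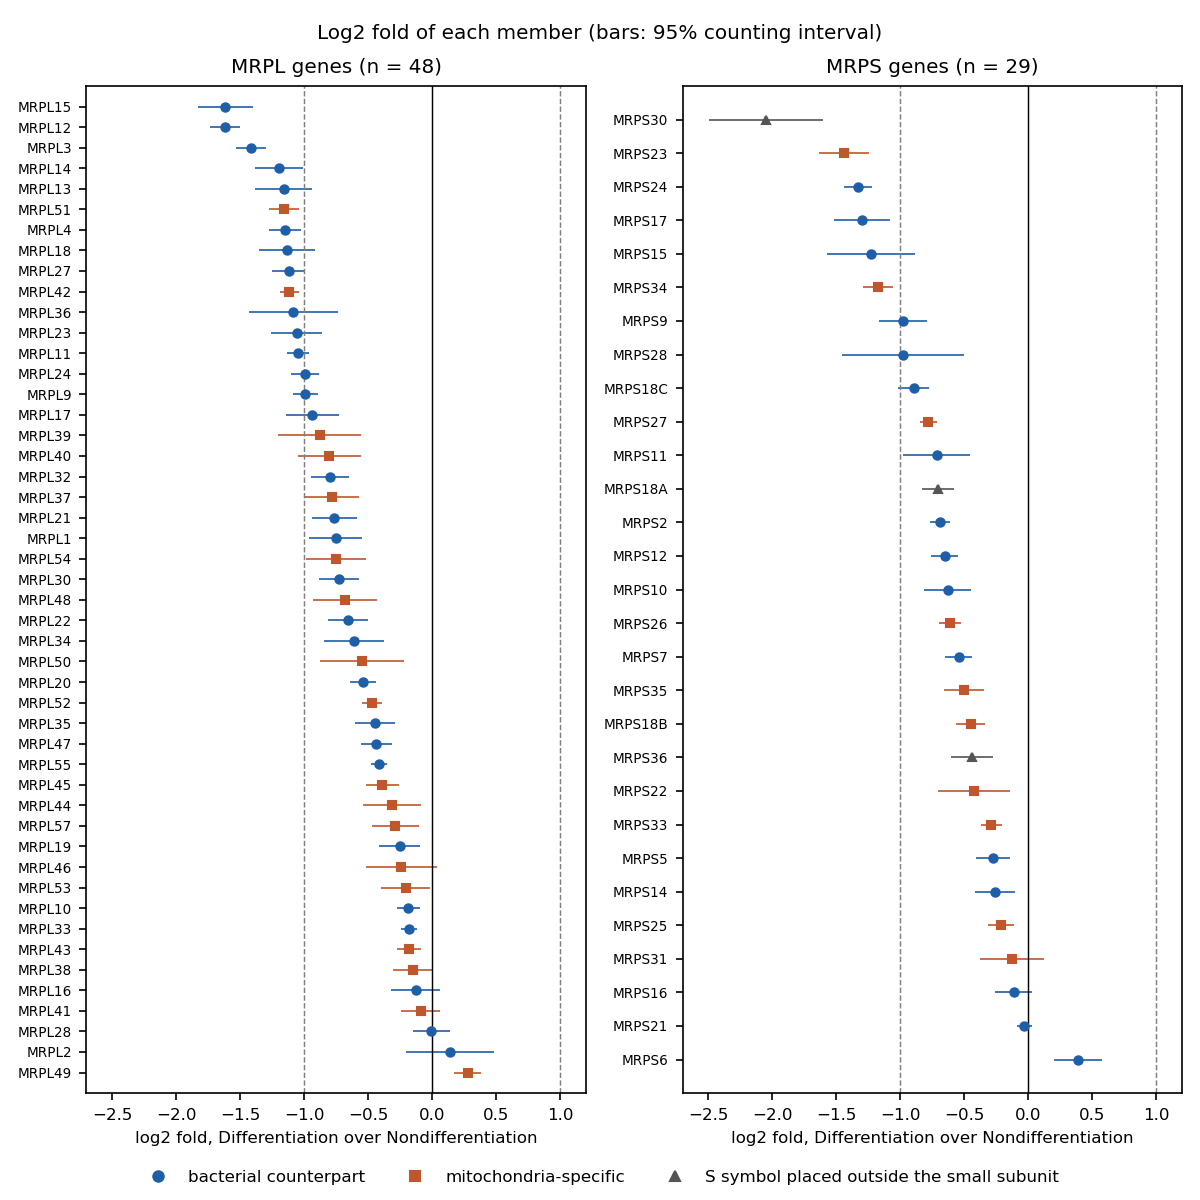
Log2 fold of Differentiation over Nondifferentiation (x axis) for each MRPL gene (left) and each MRPS gene (right), ordered from lowest to highest; bars are 95% intervals of counting error only and dashed lines mark 2-fold. MRPL15 at -1.62 and MRPS30 at -2.05 open the 2 columns, and MRPL49 at 0.28 and MRPS6 at 0.39 close them.

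The 3 members named MRPS18 are related proteins with separate places. MRPS18B and MRPS18C sit in the small subunit, while MRPS18A sits in the large. MRPS18A stood at 9.34 in Differentiation and 10.05 in Nondifferentiation, a log2 fold of -0.71 (SE 0.06). MRPS18B stood at 9.73 in Differentiation and 10.18 in Nondifferentiation, a log2 fold of -0.45 (SE 0.06). MRPS18C stood at 9.32 in Differentiation and 10.21 in Nondifferentiation, a log2 fold of -0.89 (SE 0.06). All 3 were lower and none by 2-fold, and their means over the 5 libraries lay between 9.85 and 10.23. MRPS36, now assigned to the 2-oxoglutarate dehydrogenase complex rather than the ribosome, stood at 8.71 in Differentiation and 9.15 in Nondifferentiation, a log2 fold of -0.44 (SE 0.08). Placing MRPS30 and MRPS18A with the large subunit and leaving out MRPS36 gave a small subunit median of -0.58 over 26 measured genes, small subunit proteins with other symbols included, against -0.62 by symbol.

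By origin, the 28 measured large subunit proteins with a bacterial counterpart had a median log2 fold of -0.78, with 28 of 28 below 0 and 10 (35.7%) at least 2-fold lower, against 10.9% of all measured genes. The 15 mitochondria-specific large subunit proteins had a median of -0.39, with 14 below 0 and 2 (13.3%) at least 2-fold lower, a share near that background. These medians describe 2 libraries, and the difference between the classes was not tested. In the small subunit, 14 measured proteins with a bacterial counterpart had a median of -0.64 and 8 mitochondria-specific ones had -0.56. There 2 (14.3%) of those with a bacterial counterpart and 2 (25%) of the mitochondria-specific ones were at least 2-fold lower. The order of the shares was thus the reverse of that in the large subunit, over few genes. Proteins of the ribosome with other symbols lay on the same side. ICT1, a peptidyl-tRNA hydrolase built into the large subunit, stood at 8.18 in Differentiation and 9.42 in Nondifferentiation, a log2 fold of -1.24. GADD45GIP1, also of the large subunit, had -0.70. In the small subunit AURKAIP1 had -0.94, CHCHD1 -0.52, the GTP-binding DAP3 -0.42 and PTCD3, which binds RNA at the mRNA entry, -0.16.

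Differentiation was also set against all other libraries at once. It was the lowest of the 5 in 42 of 48 MRPL and 27 of 29 MRPS genes. Among members that reached 7.81 in any library it was the lowest in 39 of 43 MRPL and 24 of 26 MRPS genes, against 40.3% of 9217 genes. It was the highest of the 5 in 1 of these 43 MRPL genes, MRPL49, and in 0 of the 26 MRPS genes, against 40.5% of all genes. The exceptions among the 77 members were MRPL2, MRPL28, MRPL41, MRPL46, MRPL49 and MRPL53, and MRPS6 and MRPS31. The other 4 libraries lay within a median span of 0.28 for MRPL and 0.29 for MRPS genes, from 0.08 for MRPS26 to 0.78 for MRPS15. In 31 of the 43 MRPL genes and 19 of the 26 MRPS genes, Differentiation stood below the other 4 by more than their span, against 25.9% of all genes. These 4 libraries are 4 conditions and not replicates, so their span holds condition and technical differences together.

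The knockdown libraries showed no such displacement. In siSTAU1 against siControl 0 of 48 MRPL and 0 of 29 MRPS genes differed by 1.5-fold or more, where over 8454 measured genes 0.0946% were at least 2-fold higher and 0.106% at least 2-fold lower. At 1.5-fold these shares were 1.02% and 1.29%. The 43 measured MRPL genes had a median log2 fold of 0.06, with 32 above 0 and 11 below, and the 26 measured MRPS genes had -0.03, with 12 above and 14 below, a side that turned to 0.15 with Nondifferentiation as the reference. Over all measured genes 50.7% lay above 0 and 48.9% below. MRPL4 had the highest fold at 0.36 (SE 0.07), standing at 10.33 in siSTAU1 against 9.97 in siControl, but Nondifferentiation stood at 10.29. MRPL22 and MRPL54 each had 0.25, MRPL14 0.22 and MRPL3 0.21. The lowest were MRPL38 at -0.34, MRPL53 at -0.33, MRPL17 at -0.31, MRPL18 at -0.19 and MRPL51 at -0.18. The extremes on both sides thus remained inside the 1.5-fold band. siSTAU1 was the highest of the 5 libraries in 20 of the 43 MRPL genes that reached 7.81 and in 7 of the 26 MRPS genes, against 16% of all genes.

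Among MRPS genes in siSTAU1, MRPS15 had the lowest log2 fold at -0.46 (SE 0.15) and MRPS11, an RNA-binding protein of the small subunit, followed at -0.43 (SE 0.14). MRPS11 stood at 7.80 in siSTAU1 and 7.92 in siUPF1, against 8.22 in siControl. MRPS7 had -0.24, MRPS16 -0.19 and MRPS18A -0.18. MRPS34 was the highest at 0.33 (SE 0.06), and MRPS31 had 0.29, MRPS36 0.23, MRPS23 0.22 and MRPS5 0.18.

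In siUPF1 against siControl 0 members of either series were 2-fold different, where 0.401% of 8475 measured genes were higher and 0.142% lower. At 1.5-fold MRPS15 alone was lower and 0 were higher, against 1.56% and 3% of all measured genes. The 43 measured MRPL genes had a median log2 fold of -0.05, with 26 below 0, and the 25 measured MRPS genes had -0.01, with 13 below, or 0.076 with Nondifferentiation as the reference. Of all measured genes 51.8% lay below 0 and 47.8% above. MRPS15 stood at 7.52 in siUPF1 against 8.16 in siControl, a log2 fold of -0.64 (SE 0.15), but Nondifferentiation stood at 7.38 and its fold against that library was 0.14. MRPS35 had -0.44 and MRPS17 -0.42, ahead of MRPS11 at -0.30 and MRPS23 at -0.29. MRPS34 had the highest fold, 0.48 (SE 0.06), standing at 10.67 in siSTAU1 and 10.81 in siUPF1, against 10.33 in siControl and 10.43 in Nondifferentiation. It was above both untargeted libraries in both knockdowns, which share siControl. MRPS18B had 0.27, MRPS10 0.26, MRPS5 0.24 and MRPS6 0.13.

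Among MRPL genes in siUPF1, MRPL28 and MRPL49 were highest, each at 0.37, followed by MRPL16 at 0.29, MRPL22 at 0.26 and MRPL48 at 0.22. MRPL28 stood at 9.23 in siUPF1 against 8.86 in siControl, and at 9.27 in Differentiation and Nondifferentiation. MRPL23 had the lowest measured fold at -0.38 (SE 0.10), then MRPL18 and MRPL14 at -0.31, MRPL45, the protein that tethers the ribosome to the inner membrane, at -0.28 and MRPL15 at -0.26. MRPL39, below the floor, had -0.50 (SE 0.16), and MRPS30, also below it, had -0.46 (SE 0.17). Compared directly, siUPF1 lay below siSTAU1 in 32 of 48 MRPL and 17 of 29 MRPS genes, with median differences of -0.11 and -0.05. These counts include members under the floor. No share or median over all genes was taken for this pair, so the counts are not read as a trait of the members.

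siControl was also set against Nondifferentiation, as 2 libraries in which neither factor was targeted. The 43 measured MRPL genes had a median log2 fold of 0.00 and the 25 measured MRPS genes had 0.11, with 20 of 25 above 0. Of 8547 measured genes 49% lay below 0. No member differed by 2-fold, where 0.222% of all measured genes were higher and 0.573% lower. MRPS15 alone was at least 1.5-fold higher and 0 members were lower, against 2.26% and 3.21% of all measured genes. Among measured MRPL genes the largest fold in size between these libraries was -0.41, for MRPL28. Against siControl the largest in size were 0.36 for MRPL4 in siSTAU1 and -0.38 for MRPL23 in siUPF1. These comparisons share siControl, and siControl and Nondifferentiation are different conditions and not replicates. The part of the siControl library in the knockdown folds was not tested.

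**Figure D3:**
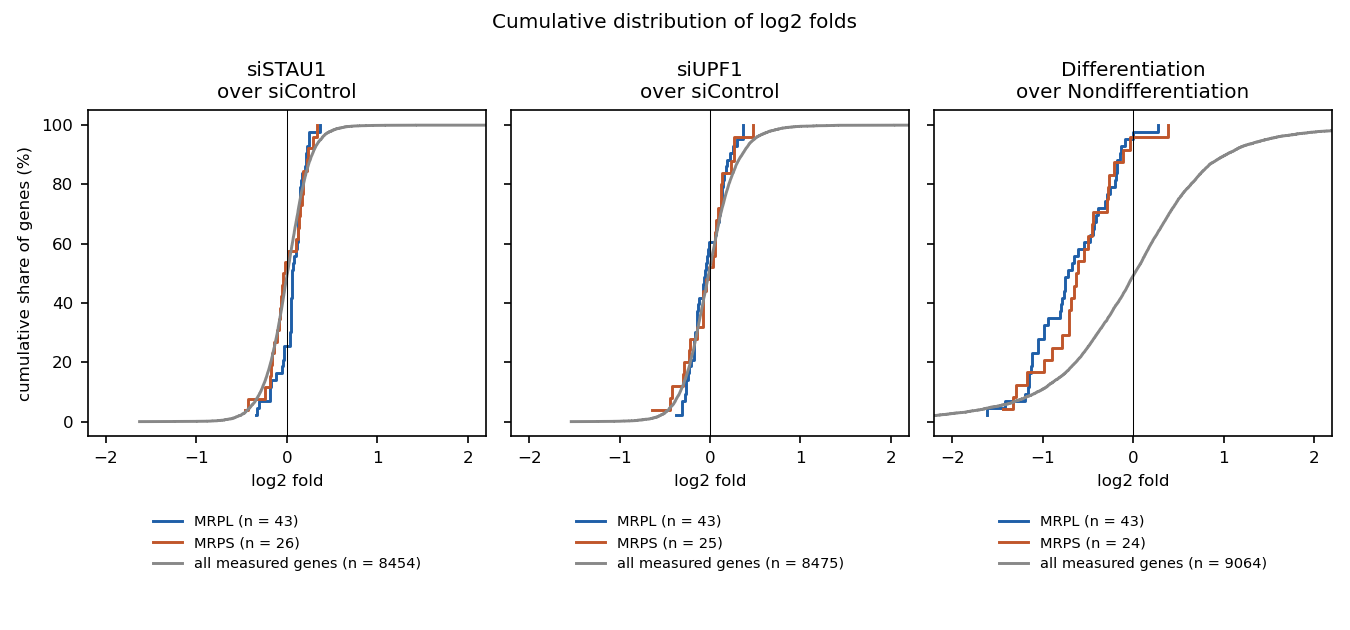
Cumulative share of genes (y axis, percent) at or below each log2 fold (x axis) for measured MRPL genes, measured MRPS genes and all measured genes in the 3 comparisons. In the siSTAU1 panel 25.6% of measured MRPL genes lie below 0 against 48.9% of all measured genes, and in the Differentiation panel both member curves lie left of that of all genes, with medians of -0.72 and -0.62 against 0.02.

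Other genes of mitochondrial gene expression were read beside the members in Differentiation. A list of mitochondrial DNA expression genes also held nuclear transcription factors and coactivators, among them NRF1, GABPA, YY1, MYC and MYCN. Of the 17 measured genes of this mixed list 15 lay below 0 with a median log2 fold of -0.68, and 3 were at least 2-fold lower. SLIRP, which stabilises mitochondrial mRNAs, stood at 11.68 in Differentiation and 13.25 in Nondifferentiation, a log2 fold of -1.57. The single-stranded DNA binding protein SSBP1 had -1.23 and the RNA-degrading PNPT1 had -1.08. TFAM, which packages mitochondrial DNA and starts its transcription, stood at 10.61 in Differentiation and 11.44 in Nondifferentiation. The highest of the group were GABPA at 0.74 and MTERF1 at 0.37. Of the transcription factors in the same list, NRF1 stood at 9.48 in Differentiation and 9.87 in Nondifferentiation. YY1 stood at 9.69 in Differentiation and 9.82 in Nondifferentiation. MYC, which drives genes of ribosome production in many cells, was listed at 0 in Differentiation and stood at 6.34 in Nondifferentiation. MYCN was listed at 0 in Differentiation and stood at 5.86 in Nondifferentiation. In the other libraries MYC stood at 7.88 in siSTAU1 and 6.38 in siUPF1, against 7.15 in siControl, and MYCN at 5.77 in siSTAU1 and 3.81 in siUPF1, against 5.80 in siControl.

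Factors that build or serve the ribosome without being part of it had medians nearer 0, a difference that was not tested. The 15 measured assembly factors had a median log2 fold of -0.28, with 9 below 0, 0 at least 2-fold lower and 1 at least 2-fold higher. That gene was MTG1, a GTPase of large subunit assembly, at 9.75 in Differentiation and 8.66 in Nondifferentiation. MTERF4, which guides a methyltransferase to the ribosome, had 0.47, while RPUSD4, which modifies the large subunit RNA, had -0.70 and RBFA, which matures the small subunit, -0.64. A further 10 assembly factors lay under the floor, among which 4 were at least 2-fold lower. The 10 measured translation factors had a median of -0.28, with 8 below 0 and 0 past 2-fold. TACO1, an activator of cytochrome oxidase subunit translation, had -0.78 and the elongation factor TSFM -0.77, while the release factor MTRF1L had 0.46 and GFM2, a recycling factor, 0.05.

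Larger groups had medians close to those of the members, with shares of 2-fold calls at or below that of all measured genes. The 75 measured proteins of the respiratory chain and ATP synthase encoded in the nucleus had a median log2 fold of -0.53. Of these, 71 lay below 0 and 5 (6.67%) were at least 2-fold lower, against 10.9% of all measured genes. UQCRC1 of complex III had -1.23 and NDUFS6 of complex I -1.20, while NDUFB1 had 0.30 and NDUFA10 0.25. The 78 cytosolic ribosomal proteins had a median of -0.61, with 78 of 78 below 0 and 8 (10.3%) at least 2-fold lower. Their folds ran from -1.34 for RPL35 and -1.18 for RPSA to -0.15 for RPS4X and -0.09 for RPL13A. Cytosolic ribosomal proteins held 4.93% of the linear total in Differentiation and 7.42% in Nondifferentiation. The mitochondrial series were therefore not alone on the lower side, and no difference between the groups was tested. In siUPF1 the cytosolic group had a median of -0.12, with 62 of 78 below 0, and the respiratory group -0.07, with 50 of 75 below 0.

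**Figure D4:**
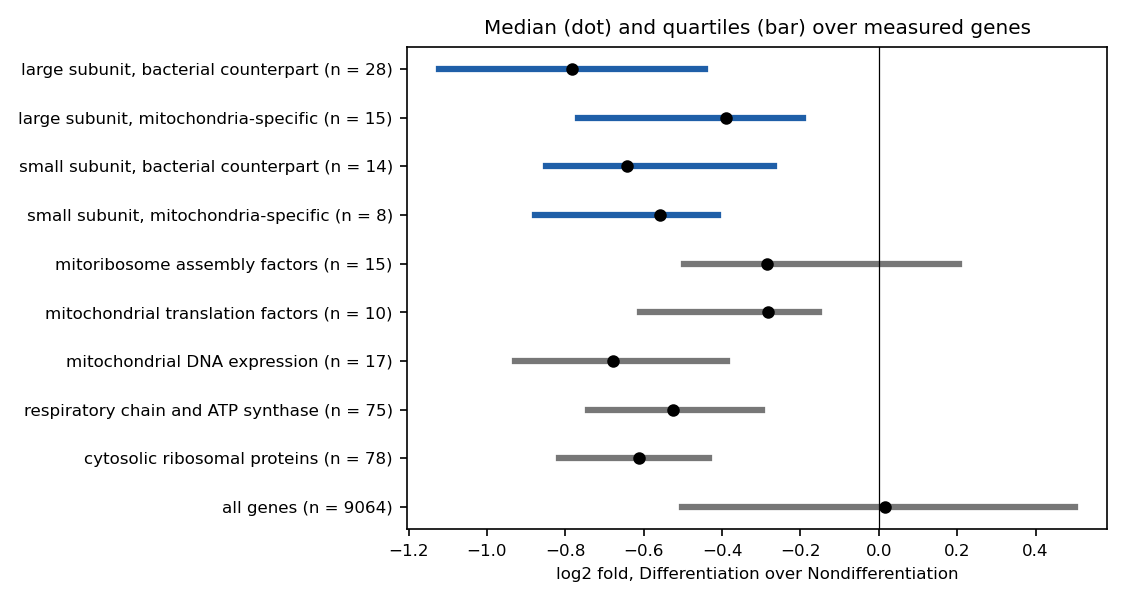
Median (dot) and quartiles (bar) of the log2 fold of Differentiation over Nondifferentiation (x axis) for classes of mitoribosomal proteins (blue, members by symbol) and other gene groups (grey), over measured genes. The classes of the members have medians between -0.78 and -0.39, assembly and translation factors lie at -0.28, and all genes lie at 0.02.

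Markers of cell identity differed in the same comparison. The 10 noradrenergic markers had a median log2 value of 10.72 in Differentiation and 12.14 in Nondifferentiation. The 8 fibroblast and mesenchymal markers summed to 107233 linear units in Differentiation and 51641 in Nondifferentiation, with 3 and 4 of them at or above 7.81 and PRRX1 listed at 0 in both. FN1, fibronectin, carried most of that sum at 16.63 in Differentiation and 15.45 in Nondifferentiation, while VIM stood at 11.27 in Differentiation and 12.52 in Nondifferentiation. Blood markers summed to 315 in Differentiation and 183 in Nondifferentiation, with 3 of 7 higher and 1 lower in Differentiation. PTPRC was listed at 0 in both, while HBB alone reached 7.81, at 7.82 in Differentiation. The part of these markers, and of the higher estimated depth of the Differentiation library, in the member values was not tested.

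Reads of pseudogene copies could enter some members. In the GENCODE annotation 34 of the 77 members have pseudogenes of any type carrying their name. Of these 75 pseudogenes 2, MRPL45P2 and MRPS31P5, have values of their own among the deposited symbols. The sources used here do not say how the authors counted reads shared with such copies. The median log2 fold in Differentiation was -0.59 for these 34 members and -0.75 for the other 43.

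RefSeq promoter windows on GRCh38.p14, from 250 bases before to 50 bases after each start site, matched 68 members by symbol. They were read because nuclear genes for mitochondrial proteins are known for sites of the ETS factor GABPA, of NRF1 and of YY1, and because most members lay on the same side of 0. The ETS letters CCGGAAG, on either strand, were present for 29 of 68 members (42.6%), against 24.4% of 7075 measured genes and 12.2% of 27305 genes with a window. The YY1 letters AAGATGGCG were present for 13 members (19.1%), against 5.43% and 2.14%. The NRF1 letters GCGCATGCG, which can overlap themselves when read on both strands, were present for 3 members (4.41%), against 4.59% and 2.34%. In all, 39 members held at least 1 of the 3 motifs, 6 held 2 or more and 29 held none. A match of letters is a description and not a shown binding site.

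The ETS letters stood close to the start site in some members that differed much and in some that did not. In others they lay farther off, with first bases at -119 and -104 from the start site in MRPL51 and at -208 in MRPL38. Shown are the 120 bases before the start site, in the direction of transcription and with the ETS letters of either strand in capitals, for 4 members at least 2-fold lower in Differentiation (MRPS23, MRPL3, MRPS34 and MRPL27) and for 2 high-level members whose log2 fold lay within 0.2 of 0 (MRPL33 and MRPS21).
MRPS23 (chr17:57850045-57850164, minus strand): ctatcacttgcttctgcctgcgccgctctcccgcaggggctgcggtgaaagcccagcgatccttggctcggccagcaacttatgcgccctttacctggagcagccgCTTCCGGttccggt
MRPL3 (chr3:131502972-131503091, minus strand): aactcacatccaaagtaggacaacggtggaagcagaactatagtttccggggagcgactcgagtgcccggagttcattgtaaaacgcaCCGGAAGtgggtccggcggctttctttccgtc
MRPS34 (chr16:1773135-1773254, minus strand): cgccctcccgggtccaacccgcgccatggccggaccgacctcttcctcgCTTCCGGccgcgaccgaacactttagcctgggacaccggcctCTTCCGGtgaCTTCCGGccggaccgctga
MRPL27 (chr17:50373185-50373304, minus strand): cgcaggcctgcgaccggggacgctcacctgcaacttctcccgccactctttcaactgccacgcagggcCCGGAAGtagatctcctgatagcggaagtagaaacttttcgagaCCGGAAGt
MRPL33 (chr2:27771599-27771718, plus strand): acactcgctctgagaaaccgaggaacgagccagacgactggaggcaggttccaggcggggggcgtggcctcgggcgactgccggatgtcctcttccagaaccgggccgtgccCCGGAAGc
MRPS21 (chr1:150293741-150293860, plus strand): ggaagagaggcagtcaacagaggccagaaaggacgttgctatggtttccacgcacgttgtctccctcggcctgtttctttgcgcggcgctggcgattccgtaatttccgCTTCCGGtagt
MRPS34 holds the letters 3 times in this stretch and MRPL27 has them 2 times. In both MRPL33 and MRPL27 the motif lies 1 base from the start site, beside log2 folds of -0.18 and -1.12. Members with the ETS letters had a median log2 fold of -0.61 in Differentiation and the 39 without them had -0.71.

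The YY1 letters mostly lay just past the start site on the coding strand, and they contain the letters ATG. Windows of 30 bases around the match are shown with the motif in capitals, for members from the lowest log2 fold in Differentiation to the highest: MRPS30 (-2.05), MRPS24 (-1.33), MRPL42 (-1.11), MRPS18A (-0.71), MRPS18B (-0.45), MRPL46 (-0.24) and MRPL38 (-0.15).
MRPS30 (chr5:44808950-44808979, plus strand): atcgcgggcaAAGATGGCGgcggccaggtg
MRPS24 (chr7:43869479-43869508, minus strand): cgcttggcccAAGATGGCGgcctccgtgtg
MRPL42 (chr12:93467512-93467541, plus strand): ggattgaaacAAGATGGCGggttcgtggtg
MRPS18A (chr6:43687763-43687792, minus strand): taggtttttgAAGATGGCGgccctcaaggc
MRPS18B (chr6:30617853-30617882, plus strand): ggcgtacgtcAAGATGGCGgcgtctgtatt
MRPL46 (chr15:88467361-88467390, minus strand): gggagaacgaAAGATGGCGgcgcccgtaag
MRPL38 (chr17:75904859-75904888, minus strand): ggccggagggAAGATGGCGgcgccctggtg
The 7 windows share the same 9 letters over a range of log2 folds from -2.05 to -0.15. The 13 members with the YY1 letters had a median of -0.66 and the 55 without them had -0.65.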

How the data were processed

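Gene expression in SH-SY5Y cells was measured in 5 libraries, 1 per group. Per the labels' protocols, libraries were built with a Lexogen QuantSeq 3' end kit from 500 ng of Trizol-extracted total RNA. The deposited values were log2 values per gene symbol. The submitters' processing notes list the build hg19 and the tools Bowtie2 and edgeR, with no version and no role. The sources used here do not give the counter, the annotation or whether strand was used. The highest value was 18.01 and the upper quartile 8.63 to 8.64 in every library, and 100% of linear values were multiples of 1/5. This is the pattern of quantile normalization over 5 libraries, as inferred here from the numbers alone. Scaling of this kind hides differences in total RNA and in overall distribution.

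A log2 fold was the difference between 2 deposited values. Estimated totals were 15800000 reads in siSTAU1, 17900000 in siUPF1, 15400000 in siControl, 32300000 in Differentiation and 18600000 in Nondifferentiation, from the step between low values. SEs and intervals cover counting error only. The floor for measured genes was 7.84 in both knockdown comparisons, 7.76 in Differentiation against Nondifferentiation and 7.81 in siControl against Nondifferentiation and over 5 libraries. The members and gene lists were chosen with earlier results of these data known. Genes were named as the 5 highest and 5 lowest measured members of each series per comparison and by mean level, every member past 2-fold or not measured, the MRPS18 members, MRPS30, MRPS36, up to 2 highest and 2 lowest of each other group, and STAU1 and UPF1. TFAM, NRF1, YY1, MYC, MYCN, MRPL10, MRPL24, MRPL9, MRPS9, markers and proteins with other symbols were named after their values were seen. RefSeq promoter sequences on GRCh38.p14 and GENCODE names were matched by symbol, and a comparison of the MRPS18 proteins was not made here. The scripts used numpy 2.4.6, pandas 2.3.3 and matplotlib 3.10.9 under Python 3.11.15 and were tested on simulated data.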

Additional observations from a re-analysis of the deposited data

How the results depend on the processing

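No paired analysis was possible because each group had 1 library, and for the same reason no library could be left out. No setting turned the sign of a 2-fold call. With both values required at the floor, the Differentiation medians were -0.60 for MRPL and -0.54 for MRPS genes, and 2 MRPS genes were at least 2-fold lower, since that filter leaves out genes low in Differentiation. Scaling by library totals without cytosolic ribosomal genes gave -0.76 for MRPL and -0.66 for MRPS, and a pseudocount of 32 gave -0.66 for MRPL. Subunits by structure gave MRPS medians of -0.58 in Differentiation and -0.048 in siUPF1. With the other untargeted library as the reference, siControl for Differentiation and Nondifferentiation for the knockdowns, the Differentiation medians were -0.69 for both MRPL and MRPS and 7 MRPS genes were at least 2-fold lower. The MRPS medians were then 0.15 in siSTAU1 and 0.076 in siUPF1, on the other side of 0 from those against siControl. Under that reference 22 of 103 named member folds changed sign, none of them a 2-fold call. Among them was MRPS15, the only member past 1.5-fold in siUPF1, at -0.64 against siControl and 0.14 against Nondifferentiation. Removing the filter and centring on the median moved 0 of 18 summary results each. Depth limits low members such as MRPS28 and MRPS30, and the spread between cultures is unknown.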

Other observations

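Many members share their start region with a neighbour read in the opposite direction. On GRCh38.p14, 26 of 68 matched members (38.2%) had a start site of another gene within 1000 bases on the opposite strand, against 30.5% of 7075 measured genes. In Differentiation against Nondifferentiation the 14 measured partners, MRPS11 among them, had a median log2 fold of -0.06, with 7 below 0, 4 at least 2-fold lower and 0 at least 2-fold higher. Over all measured genes 49.1% lay below 0, 10.9% were at least 2-fold lower and 10.4% at least 2-fold higher.

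Some pairs were lower together by at least 2-fold. MRPL27 had -1.12 and EME1, a subunit of a DNA endonuclease whose start site is 45 bases away, had -1.70. MRPL18 had -1.13 and TCP1, a chaperonin subunit 210 bases away, had -1.37. MRPL51 had -1.15 and NCAPD2, a condensin subunit 840 bases away, had -1.40. In other pairs the folds lay on opposite sides of 0 or differed in size. MRPL14 had -1.20 and TMEM63B, 240 bases away, had 0.61. MRPL57 had -0.29 and the kinetochore gene SKA3, 106 bases away, had -2.14. MRPL49, with 0.28, starts 49 bases from FAU, which encodes a cytosolic ribosomal protein and had -0.18. MRPS11 and MRPL46 are members that start 320 bases from each other and had -0.71 and -0.24. These pairs were chosen after their values were seen.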
